A study of Mus musculus with 27 samples.

Results

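The miR-669 family of the Sfmbt2 microRNA cluster was followed in mouse embryonic stem cells of 4 genotypes. Its members were all rows of the microRNA tables on the plus strand of chromosome 2 within chr2:10388304-10439867 (mm9) whose mature name contains miR-669. These were 55 of the 2035 mature microRNA loci in the tables, carrying 29 of 1900 distinct names on 29 hairpins. The remainder of the cluster held 82 loci with 41 names, of which 45 loci were miR-466, 28 were miR-467 and 9 were miR-297. One further miR-669 row, miR-669n, lies on chromosome 3 and was not a member.

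The study sequenced RNA and immunoprecipitated chromatin of CJ7 embryonic stem cells, a pluripotent mouse line grown with serum and leukemia inhibitory factor, to follow the control exerted by Polycomb repressive complex PRC2. The groups used here were wild-type, Eed-/-, Ezh2-/- and Jarid2-/- cells, all labelled with the same CJ7 strain. The labels list 2 small RNA samples each for wild-type, Eed-/- and Ezh2-/- cells and 1 for Jarid2-/- cells, but the tables used here hold 1 count column per genotype, and the sources used here do not give whether a column combines samples. No value below therefore has a replicate error, and the sources do not say whether a mutant line is 1 clone; intervals are 95% and cover counting error only. Small RNAs of 18 to 40 nucleotides were cut from a gel and sequenced on a SOLiD instrument.

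Eed, Ezh2 and Jarid2 act together on chromatin. Ezh2 is the enzyme of PRC2 that methylates histone H3, Eed is the subunit that binds the finished mark and is needed for the complex to work, and Jarid2 is a partner that helps bring the complex to its sites. Sfmbt2 encodes another Polycomb protein and is imprinted, being transcribed from the paternal copy in early embryos and in placental tissue of the mouse. One of its introns carries a large, repeated array of microRNA hairpins, whose deletion in mice impairs growth of the placenta. A microRNA hairpin is cut into a 5p and a 3p strand, either of which can be loaded into Argonaute, and bases 2 to 8 of the loaded strand, the seed, pair with target messenger RNAs.

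The family sequences are shown because their near-identity decides what the counts can tell apart. Each is written 5′ to 3′ as the deposited tables give it, from miRBase release 20, with the seed in capitals. The first set holds 5p strands, which are rich in G and U; miR-669a-5p and miR-669p-5p are the same molecule, miR-669l-5p shares their seed, and miR-669o-5p starts with an extra base so that its seed is shifted.
miR-669a-5p: aGUUGUGUgugcauguucaugucu
miR-669p-5p: aGUUGUGUgugcauguucaugucu
miR-669l-5p: aGUUGUGUgugcauguauaugu
miR-669o-5p: uAGUUGUGugugcauguuuaugu
miR-669c-5p: aUAGUUGUguguggaugugugu
miR-669b-5p: aGUUUUGUgugcaugugcaugu
miR-669m-5p: uGUGUGCAugugcauguguguau
miR-669k-5p: uGUGCAUGuguguauaguugugugc
miR-669h-5p: aUGCAUGGguguauaguugagugc
The second set holds 3p strands, rich in A and C. Among them miR-669a-3p and miR-669o-3p are identical, and miR-669b-3p and miR-669f-3p share a seed.
miR-669a-3p: aCAUAACAuacacacacacguau
miR-669o-3p: aCAUAACAuacacacacacguau
miR-669p-3p: cAUAACAUacacacacacacguau
miR-669b-3p: cAUAUACAuacacacaaacauau
miR-669f-3p: cAUAUACAuacacacacacguau
miR-669d-3p: uAUACAUAcacacccauauac
miR-669l-3p: aUAUACAUacacacccauauau
miR-669m-3p: aUAUACAUccacacaaacauau

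Of the 29 names, 12 were 5p strands, 14 were 3p strands and 3 carried no arm in the name. The 5p strands were 70.8 to 86.4% G plus U (median 77.3%), against a median of 59.1% over the 786 5p names of the whole table. The 3p strands were 61.9 to 86.4% A plus C, with a median of 76.75% against 50.0% over 796 names. Lengths ran from 21 to 25 nucleotides. The names held 27 distinct sequences and 19 distinct seeds, and 6 seeds were shared by 2 or more members.

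Copy number differed sharply between members. The sequence of miR-669a-5p and miR-669p-5p occurred at 14 loci, 12 named miR-669a-5p and 2 named miR-669p-5p, with first bases from chr2:10396087 to chr2:10431812. These copies were regularly spaced: 12 of the 13 steps between neighbouring starts were 2400 to 2500 bp long, with a median over all steps of 2452 bp, and the largest was 6379 bp. miR-669a-3p had 11 loci, while miR-669d-5p, miR-669m-5p, miR-669m-3p and miR-669p-3p had 2 each, and the other 22 names had 1.

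Copies of a repeated sequence within the family carried equal or nearly equal counts, so that a sum over loci counts the same reads several times. All 14 loci of the miR-669a-5p sequence carried 31858 counts for wild-type cells, 127242 for Eed-/-, 39265 for Ezh2-/- and 19720 for Jarid2-/-. The counts of miR-669b-5p and miR-669m-5p also coincided within 5% in every column (17229 and 17242 in wild-type cells), although their seeds differ; they share the 17-nucleotide run ugugugcaugugcaugu. The identical sequence of miR-669m-5p is listed again as miR-466m-5p at chr2:10388304-10388326, outside the family, where the counts were only 94, 762, 31 and 139 in the same order of genotypes. Members with the same sequence, or with counts within 5% in all 4 columns, cannot be told apart here and were grouped into 25 read pools, each counted once where the text says so. Neither the miR-669a-5p total nor that of miR-669b-5p with miR-669m-5p can be assigned to a single hairpin.

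Libraries differed in depth. The wild-type column held 23793733 microRNA counts, that of Eed-/- cells 42293019, that of Ezh2-/- cells 32074712 and that of Jarid2-/- cells 8485806, and levels are counts per 1000000 of these totals (CPM). Each total covers only microRNA loci; the authors' own RPM values divide by a larger read number. The miR-290 cluster, the dominant microRNA cluster of mouse embryonic stem cells, took 38.2 to 45.9% of every column, while let-7, abundant in differentiated cells, took 0.0198 to 0.0979%, highest in Jarid2-/- cells. Of the other marker sets, those for smooth muscle, neural, blood, liver, muscle, epithelium and trophoblast microRNAs took 1.18e-05 to 0.41% each, the highest being miR-205, an epithelial microRNA, in Jarid2-/- cells, and 1 of the 2 liver names (miR-122) was at 0 in every column. The embryonic stem cell set of miR-302 and miR-367 took 0.774% in wild-type cells and 1.56%, 0.522% and 1.28% in Eed-/-, Ezh2-/- and Jarid2-/- cells, the same order of genotypes as the family below. The part of these differences in the results below was not tested.

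With every locus summed, the family formed 2.67% of the wild-type column, 5.51% of the Eed-/- column, 2.12% of the Ezh2-/- column and 4.35% of the Jarid2-/- column. Counted once per read pool, the summed level was 3910 CPM in wild-type (3885 to 3935), 7571 CPM in Eed-/- (7545 to 7597), 2489 CPM in Ezh2-/- (2472 to 2506) and 5858 CPM in Jarid2-/- cells (5807 to 5909). The order of genotypes was the same by either count: Eed-/-, Jarid2-/-, wild-type, Ezh2-/-, although wild-type and Ezh2-/- changed places for the locus sum under 3 of 4 other scalings described below, and for the read-pool sum under 1. In bulk RNA, more cells that express the family and more family RNA per cell cannot be told apart.

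A single 5p sequence dominated. miR-669a-5p stood at 1339 CPM in wild-type, 3009 CPM in Eed-/-, 1224 CPM in Ezh2-/- and 2324 CPM in Jarid2-/- cells, ranking 75, 41, 53 and 52 among all 1900 names. It made up 34.2%, 39.7%, 49.2% and 39.7% of the read-pool total in the same order. The median member was far lower, at 25.5 CPM in wild-type, 58.1 CPM in Eed-/-, 23.4 CPM in Ezh2-/- and 39.2 CPM in Jarid2-/- cells. After miR-669a-5p came the pool of miR-669m-5p and miR-669b-5p at 725 and 724 CPM in wild-type cells, then miR-669l-5p at 378 CPM, miR-669o-3p and miR-669a-3p at 350 and 342 CPM, and miR-669c-5p at 316 CPM. At the other end miR-669c-3p had 4, 3, 5 and 0 counts, and miR-669i, miR-669h-3p and miR-669j stayed below 1 CPM in every genotype.

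**Figure D1:**
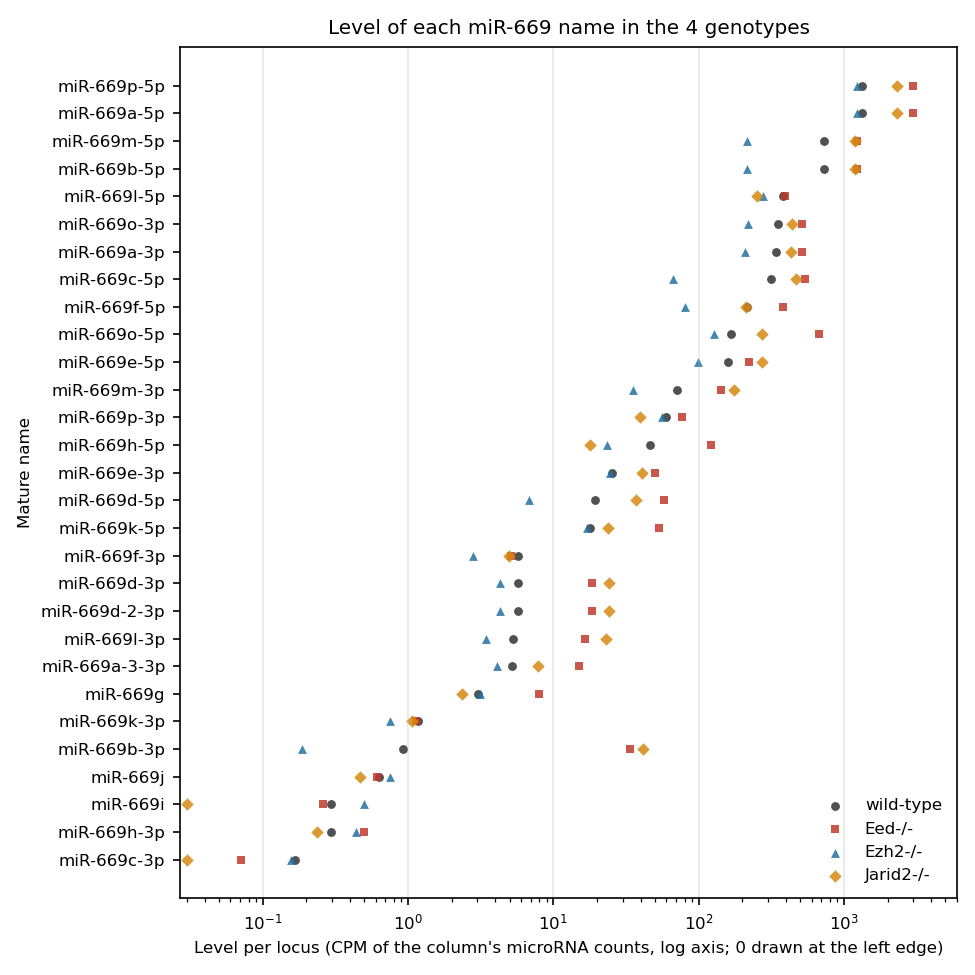
Level of each miR-669 name per locus in CPM of the column's microRNA counts on a log axis, 1 point per genotype, with names sorted by wild-type level and values of 0 drawn at the left edge. Members span from below 0.1 to 3009 CPM, and miR-669b-3p shows the widest gap, with Eed-/- and Jarid2-/- at 33.7 and 41.7 CPM and wild-type and Ezh2-/- below 1 CPM.

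In Eed-/- cells 46.4% of the compared miR-669 names stood at least 2-fold above wild-type and 0 stood as far below. A locus was compared when it had at least 10 counts in either column and was called when its CPM + 1 differed by 2-fold or more. In Eed-/- cells 27 of 54 compared member loci were higher, or 50.0%, against 17.5% of all compared loci, and 0 were lower against 15.0%. Of these 27 loci, 14 carry the one miR-669a-5p sequence, so the count per name is the more even one: 13 of 28 names were higher, against 15.3% of all names, and 0 were lower, against 16.3%. The median log2 ratio over names was 0.89, and the read-pool sum was 1.94-fold higher (1.92 to 1.95). These counts depend on the scaling. With median-ratio factors 10 of 54 loci were higher, beside 131 of 1096 over all loci, and 9 of 28 names. miR-669a-5p, miR-669p-5p, miR-669g and miR-669m-3p were then no longer called. On the authors' RPM denominators 48 loci and 22 names were higher, beside 33.7% of all compared loci. The share over all names was not computed for these scalings.

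The largest Eed-/- difference belonged to miR-669b-3p, the 3p strand of the hairpin at chr2:10389441-10389500. It had 22 counts in wild-type cells against 1425, 6 and 354 in Eed-/-, Ezh2-/- and Jarid2-/- cells, that is 0.925, 33.7, 0.187 and 41.7 CPM. Its level was 36.4-fold higher in Eed-/- (24.0 to 58.3) and 45.1-fold higher in Jarid2-/- cells (29.3 to 72.9) than in wild-type. The wild-type value rests on few counts, which the width of those intervals carries. The counts listed for its 5p partner miR-669b-5p differed by far less, at 724, 1234, 216 and 1189 CPM in wild-type, Eed-/-, Ezh2-/- and Jarid2-/- cells. Those counts are pooled with miR-669m-5p, so the 5p level of this hairpin alone was not measured.

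miR-669o-5p, at chr2:10435945-10435967, had the largest ratio of the members above 100 CPM in Eed-/- cells. Its level was 166 CPM in wild-type, 675 CPM in Eed-/-, 127 CPM in Ezh2-/- and 272 CPM in Jarid2-/- cells, and the Eed-/- level was 4.07-fold that of wild-type (3.93 to 4.20). Eed-/- stood apart above the other 3 genotypes. Among 5p strands miR-669k-5p followed at 17.8, 53.5, 17.0 and 23.7 CPM, which is 3.00-fold higher in Eed-/- (2.71 to 3.34). miR-669a-5p was 2.25-fold higher (2.22 to 2.27), and miR-669g, a low member at 3.03 and 7.97 CPM, 2.63-fold higher (2.04 to 3.45). Of the members outside the naming rule, chosen here after their values were seen, miR-669e-5p read 160, 221, 99.4 and 271 CPM, highest in Jarid2-/- cells, and miR-669a-3-3p read 5.21, 15.0, 4.12 and 7.90 CPM.

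Other members differed less in Eed-/- cells. miR-669l-5p, which has the miR-669a-5p seed, read 378 CPM in wild-type and 394 CPM in Eed-/- cells, a ratio of 1.04 (1.02 to 1.07) that turned below 1 under other scalings. miR-669f-3p read 5.72 CPM and 5.11 CPM, a ratio of 0.894 (0.718 to 1.12) whose sign also changed with the scaling, and miR-669p-3p read 59.5 and 77.4 CPM (1.30-fold, 1.22 to 1.39). The members nearest the 2-fold threshold were miR-669m-3p, just inside at 70.7 and 143 CPM (log2 ratio 1.00), and miR-669e-3p, just outside at 25.5 and 50.4 CPM (0.96).

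The Ezh2-/- column differed from this. On total counts no member was called higher, and a smaller share was called lower than over the whole table. In Ezh2-/- cells 0 of 54 loci were higher, against 4.9% of all compared loci, and 7 were lower, which is 13.0% against 24.5% of all. Per name, 0 of 28 were higher (against 5.2% of all names) and 5 were lower (17.9%, against 25.6%), and the median log2 ratio per locus was -0.41 beside -0.44 over all loci. Without miR-669a, miR-669p and miR-669o-3p, which hold most copies, the family median was -0.68, and the sign of the median over all members changed under other scalings. The read-pool sum was 1.57-fold lower (1.56 to 1.59) when scaled to the column total, but stood at 1.05 times wild-type with TMM factors.

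All 5 names called lower were 5p strands, and scaling on loci outside 3 clusters added miR-669m-3p. This split rests on the 1 CPM added before the call. In plain ratios miR-669b-3p, on 22 and 6 counts, was 4.94-fold lower (1.94 to 14.9). miR-669f-3p was 2.04-fold lower (1.55 to 2.69) and miR-669m-3p 2.01-fold (1.87 to 2.17). The lowest ratio of CPM + 1 was that of miR-669c-5p, at chr2:10430946-10430967, with 316 CPM in wild-type, 539 CPM in Eed-/-, 66.7 CPM in Ezh2-/- and 465 CPM in Jarid2-/- cells. It was 4.73-fold lower in Ezh2-/- than in wild-type cells (4.51 to 4.97), and Ezh2-/- stood well below the other 3 genotypes. The pool of miR-669m-5p and miR-669b-5p followed: miR-669m-5p read 725, 1236, 216 and 1190 CPM in wild-type, Eed-/-, Ezh2-/- and Jarid2-/- cells, which is 3.35-fold lower in Ezh2-/- (3.26 to 3.45). Both kept their sign under every scaling used. The remaining lower names, miR-669f-5p and miR-669d-5p, were named after their values were seen; they were 2.66-fold (2.53 to 2.79) and 2.84-fold (2.42 to 3.36) lower, and both calls were lost with TMM factors, median-ratio factors and RPM denominators.

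Beside these, the dominant miR-669a-5p was 1.09-fold lower in Ezh2-/- cells (1.08 to 1.11) and was higher under 3 other scalings. miR-669k-5p (17.8 and 17.0 CPM), miR-669e-3p (25.5 and 24.7 CPM) and miR-669p-3p (59.5 and 55.7 CPM) had intervals that included a ratio of 1 and signs that changed with the scaling, and miR-669g read 3.03 CPM in wild-type and 3.15 CPM in Ezh2-/- cells. Just outside the threshold were miR-669m-3p (70.7 and 35.1 CPM, log2 ratio -0.99) and miR-669h-5p (46.1 and 23.4 CPM, -0.95).

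Ratios between members within a column do not depend on how the column was scaled. In wild-type cells miR-669c-5p had 23.6% of the counts of miR-669a-5p, in Eed-/- 17.9%, in Jarid2-/- 20.0%, and in Ezh2-/- cells 5.45%. The pool of miR-669b-5p and miR-669m-5p stood at 54.1%, 41.0% and 51.2% of miR-669a-5p in wild-type, Eed-/- and Jarid2-/- cells, and at 17.6% in Ezh2-/- cells. The family's make-up in Ezh2-/- cells therefore differed from that in the other 3 columns by more than counting error: miR-669c-5p took 2.68% of the read-pool total there (2.57 to 2.79), against 7.12 to 8.07% elsewhere. miR-669o-5p was 22.4% of miR-669a-5p in Eed-/- cells, and 12.4%, 10.3% and 11.7% in wild-type, Ezh2-/- and Jarid2-/- cells.

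The family sum was higher in Jarid2-/- cells than in wild-type, while members called higher were about as frequent as in the whole table. In Jarid2-/- cells 6 of 52 loci were higher (11.5%, against 16.3% of all compared loci) and 1 was lower (against 22.8%). The median log2 ratio per locus was 0.71, beside -0.17 over all loci. Per name 5 of 26 were higher (19.2%), against 15.1% of all names, and 1 was lower, against 24.8%, with a median of 0.61. The 5 higher names were 4 read pools. The read-pool sum was 1.5-fold higher than in wild-type (1.48 to 1.51), and 18 of the 26 compared names lay above wild-type.

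On RPM denominators 8 5p names, miR-669a-5p among them (log2 ratio 1.29), were also called higher in Jarid2-/- cells, beside 27.3% of all compared loci. On total counts all 5 higher names were 3p strands. Besides miR-669b-3p they included miR-669l-3p, at 5.25 CPM in wild-type, 16.4 CPM in Eed-/-, 3.46 CPM in Ezh2-/- and 22.9 CPM in Jarid2-/- cells, or 4.35-fold higher in Jarid2-/- than in wild-type (3.46 to 5.49). miR-669d-3p read 5.72, 18.4, 4.27 and 24.2 CPM in the same order, 4.23-fold higher (3.39 to 5.29), and shares its reads with miR-669d-2-3p, which holds the same bases with 1 more at the start. miR-669m-3p read 70.7, 143, 35.1 and 175 CPM, 2.47-fold higher (2.30 to 2.65). In all of these Jarid2-/- was highest and, on total counts, Ezh2-/- lowest; under other scalings wild-type was below Ezh2-/- for miR-669l-3p and miR-669d-3p.

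miR-669h-5p, the 5p strand of the last hairpin of the family at chr2:10439801-10439867, was the 1 member called lower in Jarid2-/- cells, a call lost on RPM denominators (log2 ratio -0.83). It read 46.1 CPM in wild-type, 121 CPM in Eed-/-, 23.4 CPM in Ezh2-/- and 18.0 CPM in Jarid2-/- cells, from 1098, 5107, 752 and 153 counts. The Jarid2-/- level was 2.56-fold below wild-type (2.16 to 3.05) while the Eed-/- level was 2.62-fold above it (2.45 to 2.80). Eed-/- and Jarid2-/- cells thus stood on opposite sides of wild-type at this member. miR-669l-5p (378 and 252 CPM) and miR-669p-3p (59.5 and 39.2 CPM) were also below wild-type in Jarid2-/- cells, by 1.5-fold (1.43 to 1.57) and 1.52-fold (1.34 to 1.71).

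**Figure D2:**
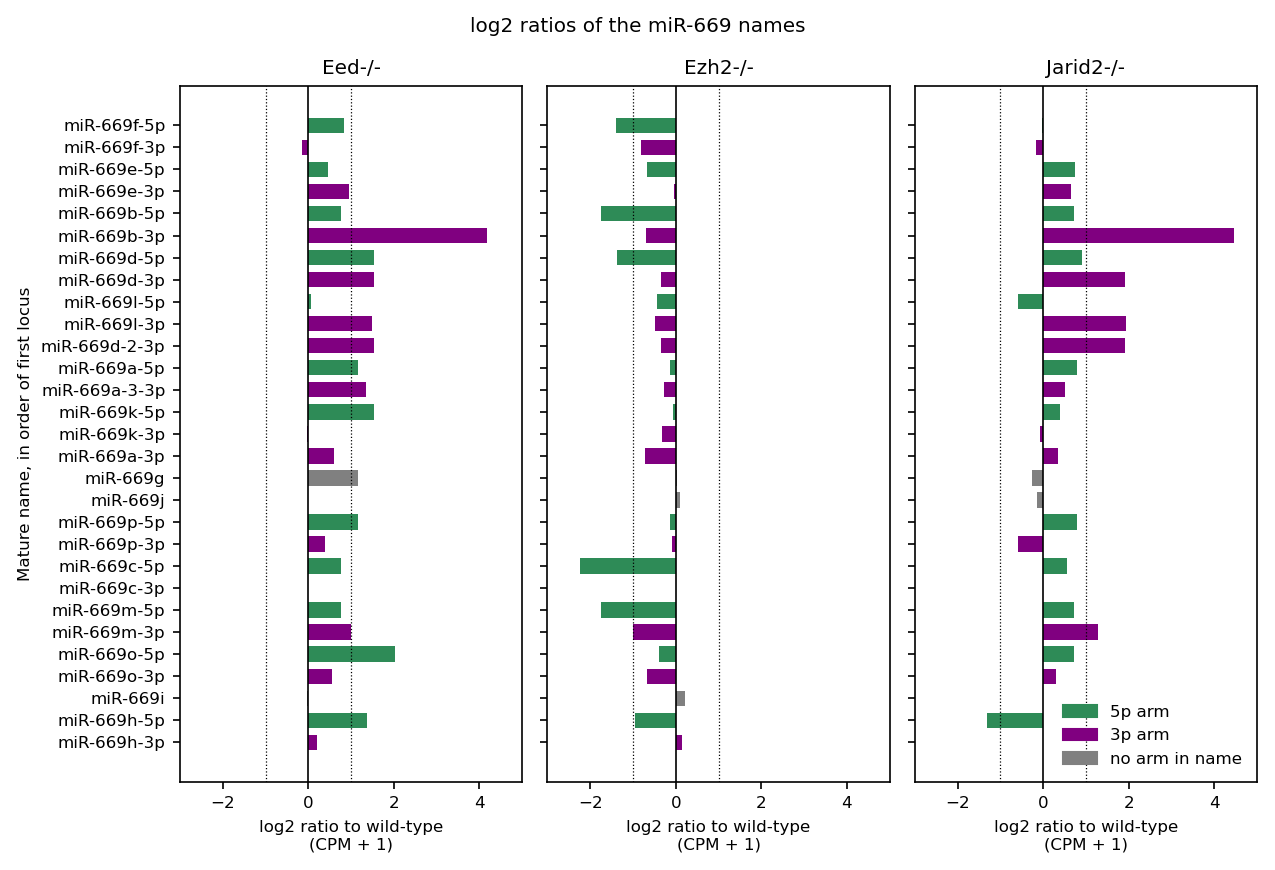
log2 ratio of CPM + 1 of each mutant to wild-type for every miR-669 name in genome order, coloured by arm, with dotted lines at 2-fold either way. Most Eed-/- bars point to the right. The Ezh2-/- bars past the left dotted line are all 5p names, although miR-669b-3p, miR-669f-3p and miR-669m-3p pass 2-fold without the added 1 CPM. The Jarid2-/- bars past the right dotted line are all 3p names. On RPM denominators 8 5p names also pass it, beside 27.3% of all compared loci. The sign of 12 of the 21 named Ezh2-/- ratios changes with the scaling.

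The mutants also differed from one another. Per read pool, Eed-/- exceeded Ezh2-/- cells 3.04-fold (3.02 to 3.07), Jarid2-/- exceeded Ezh2-/- cells 2.35-fold (2.33 to 2.38), and Eed-/- exceeded Jarid2-/- cells 1.29-fold (1.28 to 1.30). Over 24 read pools compared, Eed-/- was the highest genotype in 15, Jarid2-/- in 5, and wild-type and Ezh2-/- in 2 each. Ezh2-/- was the lowest in 17 and Jarid2-/- in 7. With TMM factors the ratios were 1.68, 1.39 and 1.21, and Ezh2-/- was the lowest in 7 and wild-type in 9, so the place of Ezh2-/- cells below wild-type depends on the scaling. These ratios share columns and are shown side by side only.

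Levels were also summed over family members that share a seed, leaving out names outside the family. The seed GUUGUGU, carried by miR-669a-5p, miR-669p-5p, miR-669l-5p and miR-669f-5p at 16 loci and by no name outside the family, summed per read pool to 1930 CPM in wild-type, 3783 CPM in Eed-/-, 1584 CPM in Ezh2-/- and 2787 CPM in Jarid2-/- cells. It was the largest seed group in every genotype, 1.96-fold higher in Eed-/- (1.94 to 1.98) and 1.44-fold higher in Jarid2-/- than in wild-type cells (1.42 to 1.47). The 3p seed CAUAACA of miR-669a-3p, miR-669o-3p and miR-669a-3-3p came to 351, 531, 217 and 442 CPM, mostly from the pool of miR-669a-3p and miR-669o-3p. The sum was 1.51-fold higher in Eed-/- than in wild-type cells (1.47 to 1.55), while the low member miR-669a-3-3p was 2.87-fold higher (2.37 to 3.51). The identical miR-669a-3p and miR-669o-3p had 8128 and 8335 counts in wild-type cells.

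Other seeds are shared with names of the miR-297, miR-466 and miR-467 families. UAUACAU, the seed of miR-669l-3p, miR-669m-3p and miR-669d-2-3p, is also that of 4 miR-467 3p strands, and its family members summed to 81.7, 177, 42.8 and 222 CPM in wild-type, Eed-/-, Ezh2-/- and Jarid2-/- cells. AUAUACA, shared by miR-669b-3p and miR-669f-3p with miR-467a-3p, came to 6.64, 38.8, 2.99 and 46.7 CPM. Within this seed the 2 members parted: miR-669f-3p read 5.72, 5.11, 2.81 and 4.95 CPM, so the higher sum in Eed-/- and Jarid2-/- cells came from miR-669b-3p. The seed of miR-669m-5p, GUGUGCA, is shared with 3 miR-466 names, 2 of them in the cluster, and that of miR-669d-3p, AUACAUA, with 7 names of the miR-297, miR-466 and miR-467 families, 6 of them in the cluster. The rarest shared seeds were AUGCAUA, led by miR-669k-3p at 1.18, 1.13, 0.748 and 1.06 CPM, and GCAUAUA, led by miR-669j at 0.630, 0.615, 0.748 and 0.471 CPM, where no difference was detectable at this depth.

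The 5p name carried more counts than the 3p name in nearly every pair of names. Of 14 distinct pairs of names, from 26 hairpins with both arms, 13 had over 50% of their counts on the 5p strand in wild-type, Ezh2-/- and Jarid2-/- cells, and 14 in Eed-/- cells. The median 5p share was 94.8% in wild-type cells and 96.7%, 95.7% and 93.7% in Eed-/-, Ezh2-/- and Jarid2-/- cells. Counts cannot be split between copies, so pairs that involve miR-669a-5p, miR-669p-5p, miR-669b-5p, miR-669m-5p or miR-669d-5p compare a shared pool with its 3p partner. For those pairs the balance of a single hairpin was not measured, and the medians include them.

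The exception was the pair of names of the miR-669o hairpin. Its 5p share was 32.1% in wild-type (Clopper-Pearson, 31.3 to 33.0), 36.7% in Ezh2-/-, 38.5% in Jarid2-/- and 56.6% in Eed-/- cells (56.1 to 57.0). The count of miR-669o-3p includes reads of the identical miR-669a-3p, so the share of this hairpin alone is not measured. In the miR-669b pair, whose 5p counts are pooled with miR-669m-5p, the 5p share was 99.9% in wild-type and Ezh2-/- cells. It was lower in Eed-/- and Jarid2-/- cells, at 97.3% and 96.6%. The miR-669l pair moved from 98.6% in wild-type to 91.7% in Jarid2-/- cells (90.5 to 92.8), as miR-669l-5p was lower and miR-669l-3p higher there. The miR-669d pair stood at 77.3%, 76.0%, 61.5% and 60.7% in wild-type, Eed-/-, Ezh2-/- and Jarid2-/- cells.

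**Figure D3:**
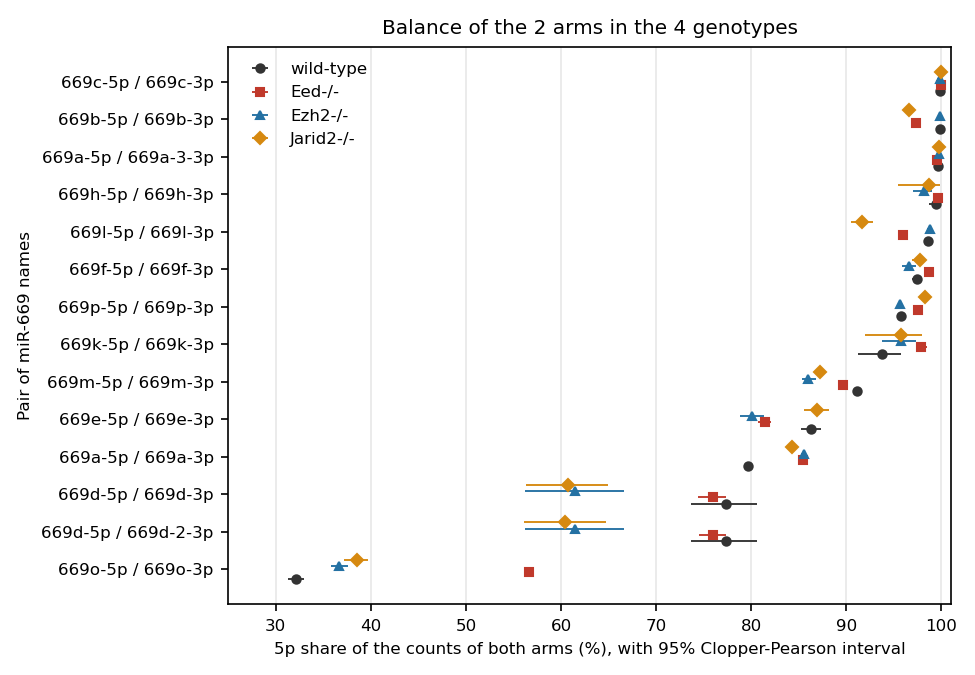
Share of the counts of both arms that fell on the 5p strand, in percent, for 14 pairs of miR-669 names, 1 point per genotype with its 95% Clopper-Pearson interval. Most pairs lie above 75% in every genotype; the miR-669o pair lies between 32.1% in wild-type and 56.6% in Eed-/- cells.

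By arm, the 12 5p names held 86.4% of the read-pool counts in wild-type cells and 88.3%, 86.0% and 86.4% in Eed-/-, Ezh2-/- and Jarid2-/- cells. In Eed-/- cells 6 of 12 5p and 6 of 13 3p names were higher, against 15.3% of all names. In Ezh2-/- cells 5 of 12 5p names and 0 of 13 3p names were lower, against 25.6% of all names, with median log2 ratios of -0.82 and -0.35. The 3p count depends on the added 1 CPM, since miR-669b-3p, miR-669f-3p and miR-669m-3p passed 2-fold without it. In Jarid2-/- cells 0 of 12 5p names and 5 of 12 3p names were higher, against 15.1% of all names, although the medians were 0.71 and 0.59. That split depends on the scaling. On RPM denominators 8 of 12 5p names and 6 of 12 3p names were higher, beside 27.3% of all compared loci. The difference between arms was not tested.

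Position along the cluster was examined by cutting the interval into 3 equal lengths. In the first stretch, with 18 names, the median log2 ratios were 1.06 in Eed-/-, -0.39 in Ezh2-/- and 0.59 in Jarid2-/- cells. The middle one, where the 4 names are copies of the miR-669a and miR-669p hairpins, gave 0.88, -0.13 and 0.57. The last, with 11 names, gave 0.77, -0.70 and 0.63. Names lower in Ezh2-/- cells lay in both end stretches, 3 in the first and 2 in the last. However, miR-669b-5p in the first and miR-669m-5p in the last are 1 read pool, so the same reads count as lower at both ends. Names with copies in several stretches, such as miR-669a-5p, enter each of them. Position is therefore not resolved for these names.

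The family was compared with the rest of the cluster by medians over names and by sums. Per distinct name, 26 of 36 compared names of the rest of the cluster were higher in Jarid2-/- cells (15.1% of all names), with a median log2 ratio of 1.24, against 5 of 26 miR-669 names and 0.61. The miR-466 names had a median of 1.24, miR-467 names 1.06 and miR-297 names 1.29. For miR-467 the higher place held for the median over names and the share of names called higher (5 of 10), but not for every measure. Its summed log2 ratio per name was 0.55 beside 0.64 for miR-669, and its median per locus 0.64 beside 0.71. In Eed-/- cells the medians were close, at 0.89 for miR-669 and 0.85 for the rest, of which 17 of 39 were higher (15.3% of all names). In Ezh2-/- cells the rest of the cluster had a median of -0.67 with 7 of 36 names lower, or 19.4% against 25.6% of all names, beside -0.41 for miR-669. The summed log2 ratio per name was -1.24 for the rest and -0.61 for miR-669 in Ezh2-/- cells, and 1.15 and 0.64 in Jarid2-/- cells. With 1 column per genotype these differences were not tested.

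**Figure D4:**
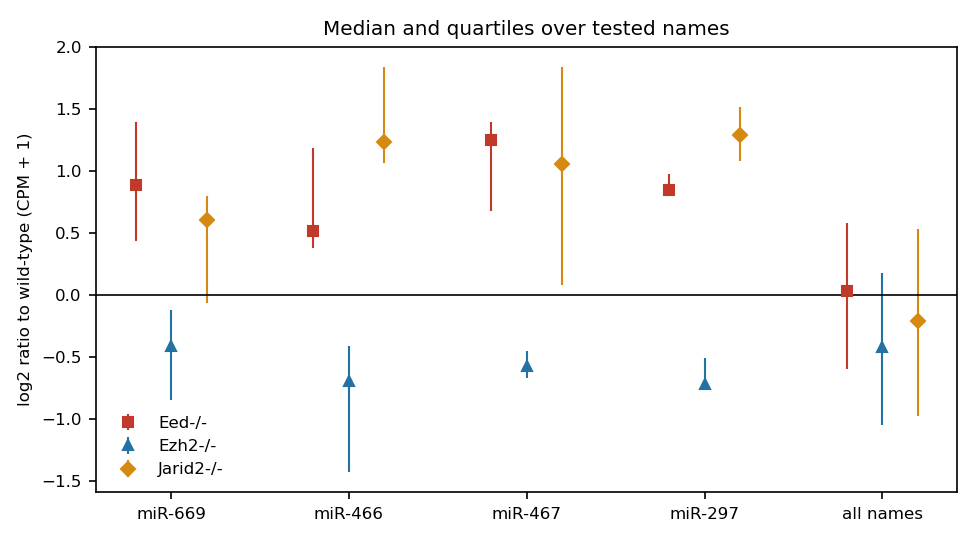
Median log2 ratio of each mutant to wild-type (CPM + 1) over compared names of the miR-669, miR-466, miR-467 and miR-297 families of the cluster and over all names, with bars from the lower to the upper quartile. In Jarid2-/- cells the miR-669 median of 0.61 lies below the 1.06 to 1.29 of the other 3 families. For miR-467 this does not hold for the sum per name or the median per locus. Ezh2-/- medians move with the scaling.

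miR-669b-3p had few counterparts in the whole table. Among all names, 8 were at least 8-fold higher than wild-type in both Eed-/- and Jarid2-/- cells. In the Sfmbt2 cluster these were miR-669b-3p and miR-466o-3p, and miR-466o-3p had 278 counts in wild-type cells against 17398, 133 and 7156 in Eed-/-, Ezh2-/- and Jarid2-/- cells. The longest run of bases shared by miR-669b-3p and miR-466o-3p was 8 nucleotides. This count shares its wild-type column between both mutants, and a low wild-type value raises both ratios.

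The scaling moved the ratios of all 3 mutants, and the sign of the family median changed in Ezh2-/- cells alone. The median log2 ratio of the family was -0.41 in Ezh2-/- cells on total counts, 0.19 with TMM factors, 0.01 with median-ratio size factors and -0.05 on the authors' RPM denominators, while the median of all loci was -0.44, 0.09, -0.07 and -0.13. A new column total shifts every log2 ratio by nearly the same amount, so family and column had to move together. The gap between them was 0.03 to 0.09 over these scalings. Over all loci, 49 were higher and 245 lower in Ezh2-/- cells on total counts, and 145 higher and 163 lower with TMM factors. In Eed-/- cells the family median was 0.76 to 1.68 and lay 0.82 to 1.17 above that of all loci, with 192 loci higher and 164 lower on total counts, 131 and 196 with median-ratio factors, and 369 and 110 on RPM denominators. In Jarid2-/- cells it was 0.59 to 1.21 and lay 0.84 to 0.98 above, with 155 loci higher and 217 lower on total counts, 259 and 184 on RPM denominators, and 29 members higher and 0 lower in place of 6 and 1.

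**Figure D5:**
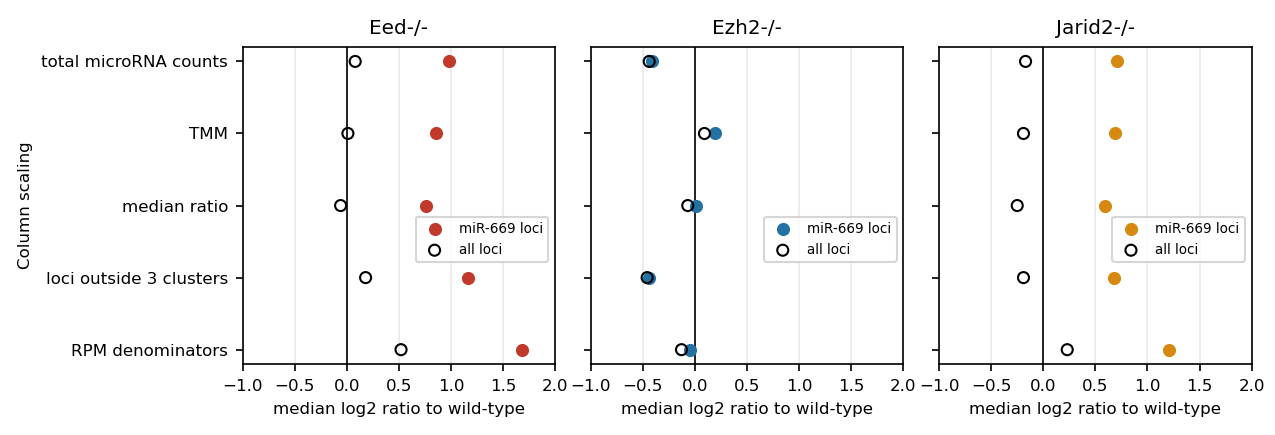
Median log2 ratio to wild-type of the miR-669 loci (filled) and of all loci (open) under 5 ways of scaling the columns, for each mutant. The family lies to the right of all loci in Eed-/- and Jarid2-/- cells under each scaling, while in Ezh2-/- cells both points lie together on either side of 0. A scaling moves both points by nearly the same amount, so their order is not a separate result for each scaling.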

How the data were processed

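Small RNA of the 4 genotypes was analysed from 4 tables, 1 per genotype. Read counts per mature microRNA locus were deposited by the authors, with miRBase release 20 as the catalogue per the file headers. RPM values stand beside them in the deposited tables, and dividing counts by RPM gave denominators of 246316316, 267248746, 243895676 and 62259756 reads (wild-type, Eed-/-, Ezh2-/-, Jarid2-/-). Per the submitters' processing notes, cutadapt and Bowtie were used with build mm9. The sources used here give neither versions nor the handling of reads with several matches. Each column was matched to a genotype through its name. The wild-type column is named only for the line, CJ7, and the Jarid2-/- column carries Jumonji, an older name of that gene.

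Here counts were scaled to CPM of the column total. Log2 ratios used CPM + 1, and a locus was compared if either column held at least 10 counts, a 2-fold difference being called. Ratios carry exact conditional binomial 95% intervals and shares carry Clopper-Pearson intervals; both cover counting error only. PCR reads are not independent molecules. A count of 0 allows up to 3 counts, which is 0.0709 to 0.354 CPM. With 1 column per genotype no test between genotypes was made. Pools of names were formed from equal sequence or counts within 5% in all columns.

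Members named with values were the 8 names of highest wild-type level, the 3 highest and 3 lowest ratios per mutant among names with at least 50 counts, and the most abundant name of each shared seed. Members and lists were chosen with earlier results of these data known. Alternatives covered TMM factors (edgeR 4.0.16), median-ratio size factors (DESeq2 1.42.0), scaling on loci outside the Sfmbt2, miR-290 and Gtl2 clusters, the RPM denominators, filters, pseudocounts and fold thresholds. The scripts (Python 3.11.15, R 4.3.3) were tested on simulated counts.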

Additional observations from a re-analysis of the deposited data

How the results depend on the processing

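No paired analysis was possible because each genotype has 1 count column without a replicate number, and leaving out a replicate could not be run for the same reason. Of 135 repeats of the family sums and counts under other settings, 89 stayed within the limits set, 43 moved and 3 reversed. Of 793 repeats for named members, 160 moved and 0 called values reversed. Count filters, pseudocounts and fold thresholds cannot change a summed ratio. Count filters, fold thresholds and leaving out names of several loci cannot change a named ratio. Those repeats were the same by construction, so the tallies do not measure how stable the results are. Counting once per read pool and leaving out miR-669a, miR-669p and miR-669o-3p were chosen after seeing the data. The summed log2 ratio of the family loci in Eed-/- cells, 1.05, was 0.92 with TMM factors, 0.82 with median-ratio factors, 1.23 scaled on loci outside 3 clusters, 1.76 on RPM denominators, 0.96 per name, 0.82 without names of several loci, 0.95 per read pool and 0.84 without miR-669a, miR-669p and miR-669o-3p. In Ezh2-/- cells the sum of -0.33 reversed to 0.40 with TMM factors, 0.19 with median-ratio factors and 0.12 on RPM denominators, and read -0.36 outside 3 clusters, -0.62 per name, -1.05 without names of several loci, -0.65 per read pool and -1.33 without miR-669a, miR-669p and miR-669o-3p; the median of -0.41 reversed to 0.19 and 0.01 with the first 2 of these. In Jarid2-/- cells the sum of 0.70 read 0.68, 0.58, 0.68 and 1.2 under the 4 scalings in that order, then 0.65, 0.44, 0.58 and 0.61. The 27 loci higher in Eed-/- cells became 10 with median-ratio factors, 48 on RPM denominators, 12 per name with the column total also summed per name (13 on the locus total), 9 without names of several loci, 11 per read pool, 12 without miR-669a, miR-669p and miR-669o-3p, 44 at 1.5-fold and 2 at 4-fold. The 7 lower in Ezh2-/- cells became 4 with TMM factors, median-ratio factors, RPM denominators or read pools, 3 without names of several loci, 11 with a pseudocount of 0.1 CPM, 25 at 1.5-fold and 1 at 4-fold. The 6 higher in Jarid2-/- cells became 29 on RPM denominators, 28 at 1.5-fold and 1 at 4-fold, and the 1 lower became 0, 3 and 0. Over all compared loci, RPM denominators gave 33.7% higher in Eed-/- and 27.3% in Jarid2-/- cells. At 1.5-fold, 27.9% were higher in Eed-/-, 42.4% lower in Ezh2-/- and 26.6% higher in Jarid2-/- cells. At 4-fold these shares were 5.66%, 13.2% and 4.11%. With a pseudocount of 0.1 CPM, 34.5% of all compared loci were lower in Ezh2-/- cells. Counting per name, per pool or without some names changes the members summed by construction, and a fold threshold changes the count by construction; for the scalings the cause was not tested. Depth was lowest in Jarid2-/- cells, where 1 count is 0.118 CPM, so ratios of members with few counts are the least precise there.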

Other observations

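miR-669n, the miR-669 row outside the cluster at chr3:115682823-115682842, had 6 counts for wild-type cells, 0 for Eed-/-, 1 for Ezh2-/- and 1 for Jarid2-/-. A count of 0 allows up to 0.0709 CPM in the Eed-/- column, which is below the 0.252 CPM read in wild-type cells. The wild-type value rests on 6 counts. All columns were below the minimum count for a comparison, so this row was not called and a difference was not tested.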
